A study of Mus musculus with 24 samples.

Results

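Before a muscle fibre can burn a fatty acid, the fatty acid has to be released from circulating triglyceride, cross the plasma membrane, be activated to an acyl-CoA and be carried into the mitochondrion as an acylcarnitine. The data described here are the transcripts of 10 genes of this route, Lpl, Cd36, Slc27a1, Fabp3, Acsl1, Cpt1a, Cpt1b, Slc25a20, Cpt2 and Crat, in the gastrocnemius of mice given n-3 LC-PUFA or rosiglitazone on a high-fat diet. They were picked by name among the 22244 genes named on the array, with earlier results of these data known. A probe belonged to the group when its gene name, or the current symbol of its accession, was one of the 10. The group comprised 17 probes, of which 16 were bright enough to be compared.

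Lipoprotein lipase (Lpl) acts on the capillary wall and frees fatty acids from triglyceride-rich particles. CD36 and FATP1, the product of Slc27a1, promote their entry into the cell, and the heart-type binding protein FABP3 carries them through the cytosol. Long-chain acyl-CoA synthetase (Acsl1) then activates them. CPT1, on the outer mitochondrial membrane, exchanges CoA for carnitine, as the muscle form Cpt1b or the liver form Cpt1a, and it is the enzyme that malonyl-CoA inhibits. The carnitine-acylcarnitine translocase (Slc25a20) takes the acylcarnitine across the inner membrane, where CPT2 restores the acyl-CoA, and carnitine acetyltransferase (Crat) does the same kind of exchange with acetyl groups. Several of these genes are known targets of the PPAR receptors, which bind fatty acids, and rosiglitazone, a thiazolidinedione, is a ligand of PPARγ.

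The animals were male C57BL/6N mice, 3 months old at the start, in 3 groups of 8 that were fed for 8 weeks. The cHF group received a corn-oil-based high-fat diet with 35% lipids by weight, the cHF+F group the same diet with 15% of its lipids exchanged for a concentrate of 46% DHA and 14% EPA, and the cHF+ROSI group received rosiglitazone at 10 mg per kg of the cHF diet. All mice were fasted for 10 hours in the light phase and then had access to Chow overnight, so every value describes muscle of Chow-re-fed animals. The mice were housed in pairs, and which animals shared a cage was not given in the sources used here. As each array held a different mouse, the p-values of group differences below weigh a difference against the spread between arrays of a group. That spread holds differences between mice together with those between arrays and slides, unless the slide is named as a block.

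Each array carried the RNA of 1 mouse in Cy5 and a common reference pool in Cy3, without a dye swap, and a value is the log2 ratio of the animal over the pool after loess normalization. By the labelling protocol the pool also held RNA of mice on a higher rosiglitazone dose, whose arrays were not analysed here, while the label of the pool names 2 diets. Its make-up is thus not settled, a log2 ratio of 0 has no meaning of its own, and the group differences are what was measured. The 24 arrays lay on 8 slides of 3, with 1 array per group on each slide and each diet always at the same position, so that diet and position on the slide cannot be told apart. Of the spots, between 30.4% and 61.3% were well above background in Cy5 on 23 arrays and 91.1% on cHF+ROSI replicate 4. On cHF+ROSI replicate 3 the brightest 2% of the probes had a median log2 ratio of -0.64, against -0.25 to 0.09 on the other arrays. The 12 skeletal muscle markers examined were all bright enough to be measured.

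In the cHF+F mice, 15 of the 16 probes had a lower mean than in the cHF mice, beside 49.6% of all 15934 probes tested. The median log2 difference of the 16 probes was -0.13, and that of all probes was 0.00056. None of the differences passed the correction over all probes (0 of 16 members, and 0% of all probes, in limma), the smallest adjusted p of a member being 0.53. At an unadjusted p under 0.05, 3 member probes were lower and 0 were higher, beside 4.02% and 2.85% of all probes, and 2 of the 3 had a fold of at least 1.2, beside 0.64% of all probes. These were probes of Acsl1, Cpt2 and Cd36. The count of lower members was 2 by the methods' t-test (beside 4.49% of all probes) and 6 with the slide as a block (beside 6.48%). Again 0 members passed the correction. Without cHF replicate 1 the count was 7 (beside 4.62%).

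The cHF+ROSI mice were likewise lower than the cHF mice in 14 of the 16 probes, beside 54.4% of all probes, with a median log2 difference of -0.10 against -0.0082 for all probes. Again 0 of 16 members, and 0% of all probes, passed the correction (limma, smallest adjusted p of a member 0.979). At an unadjusted p under 0.05, 4 member probes were lower, beside 2.99% of all probes, and 0 were higher, beside 1.71%. A fold of at least 1.2 was met as well by 2 of them, beside 0.238% of all probes. The 4 lower probes were those of Cpt2, Cpt1b, Crat and Fabp3. Their number was 3 by the methods' t-test (beside 3.14% of all probes) and 5 with the slide as a block (beside 5.52%). It was between 3 and 6 when 1 array was left out, where the share of all probes ran from 2.38% to 4.43%. The 6 and the 4.43% were met without cHF replicate 1. Both comparisons share the cHF mice, so their directions are not independent of each other.

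When the 2 additions were set against each other, no direction prevailed: 9 of the 16 probes were lower in cHF+F, beside 46.1% of all probes. The correction was passed by 0 members and 0% of all probes (limma), and at an unadjusted p under 0.05 there was 1 higher probe, that of Crat, beside 3.97% of all probes, and 0 lower ones, beside 2.7% (with a fold of at least 1.2, 0 beside 0.646%). Without cHF+ROSI replicate 3 the count of 1 higher became 0, beside 677 of all 15934 probes. Without cHF+F replicate 3 the count of 0 lower became 2, beside 3.11% of all probes. In all 3 comparisons the ranges of the groups overlapped for every member probe, and the share of all probes with overlapping ranges was not computed. A lower ratio in a muscle sample may stand for less RNA per cell or for fewer cells of the type that makes it, and these cannot be told apart here.

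**Figure D1:**
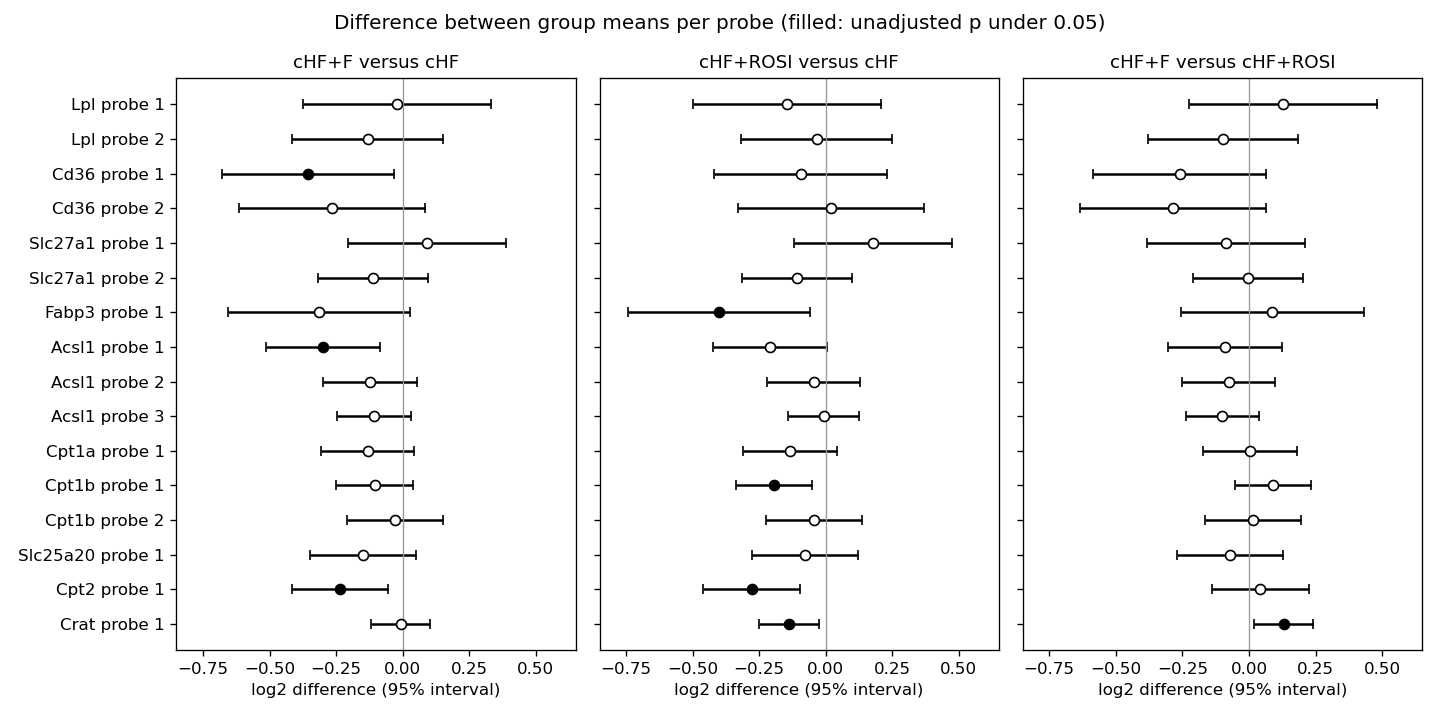
Log2 differences between group means for the 16 measured probes of the 10 genes (points) with the 95% interval from the limma fit (bars), in the n-3 comparison with cHF, the rosiglitazone comparison with cHF and the direct comparison of both. Filled points have an unadjusted p under 0.05, which is met by 3, 4 and 1 probes, while 0 pass the correction over all probes.

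Lpl, at the vascular end of the route, was the member that varied most from mouse to mouse when each gene was taken by its brightest probe. Its brighter probe (mm8, chr8:71835357-71835416, plus strand) ran from -0.66 to 0.59 with a median of -0.077 in the cHF mice, from -0.31 to 0.56 with a median of -0.084 in the cHF+F mice, and from -0.64 to 0.45 with a median of -0.18 in the cHF+ROSI mice. Each group thus held mice with widely differing ratios. The log2 difference was -0.019 for cHF+F (95% interval -0.37 to 0.33) and -0.15 for cHF+ROSI (-0.50 to 0.21), neither beyond the spread between animals. The second Lpl probe gave -0.13 and -0.034.

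Cd36, the membrane glycoprotein that facilitates fatty acid entry, had the largest difference of the group under the n-3 diet. Its brighter probe (mm8, chr5:17294606-17294665, minus strand) ranged from -0.71 to 0.48 in the cHF mice with a median of 0.023. The cHF+F mice ranged from -1.23 to 0.14 with a median of -0.26, and the cHF+ROSI mice from -0.39 to 0.20 with a median of -0.088. The ranges overlapped, and 7 of the 8 cHF+F mice lay below the cHF mean.
The log2 difference of cHF+F from cHF was -0.36 (SE 0.16, 95% interval -0.68 to -0.031, limma adjusted p = 0.671), a fold of 0.782. It was -0.27 (SE 0.17, 95% interval -0.61 to 0.083) with the second probe, which followed the first from animal to animal with r = 0.960. The lowest value, that of cHF+F replicate 8, stood apart, and without it the difference was -0.23, which was no longer past an unadjusted p of 0.05. The lowest cHF mouse was also replicate 8, on the same slide, and without that mouse the difference was -0.46. With the slide as a block, the limma adjusted p was 0.132. Against cHF+ROSI, the cHF+F mice differed by -0.26 (95% interval -0.58 to 0.064) and -0.28 (-0.63 to 0.064) on the 2 probes. The cHF+ROSI mice themselves differed from cHF by -0.095 (95% interval -0.42 to 0.23) and 0.019.

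Slc27a1, which encodes the fatty acid transport protein FATP1, had probes of opposite sign against cHF in both groups. Probe 1 (mm8, chr8:74515346-74515405, plus strand) was higher than in cHF by 0.092 in the cHF+F and by 0.18 in the cHF+ROSI mice, while probe 2 (chr8:74516231-74516290) gave -0.11 in both. All 4 intervals included 0. The 2 probes followed each other across animals with r = 0.368 only. In the cHF mice probe 1 spread from -0.85 to 0.30, and in the cHF+ROSI mice from -0.23 to 0.23.

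Fabp3, the cytosolic carrier typical of heart and oxidative muscle, had a single probe (mm8, chr4:129817668-129817727, plus strand). The cHF mice ranged from -0.34 to 0.82 with a median of 0.32, the cHF+F mice from -0.52 to 0.25 with a median of 0.045, and the cHF+ROSI mice from -0.70 to 0.35 with a median of 0.035. The highest 3 values of all 24 animals were cHF mice, although 2 cHF mice lay below the medians of the other groups. All 8 cHF+F and 7 of the 8 cHF+ROSI mice were below the cHF mean. The log2 differences were -0.31 for cHF+F (SE 0.17, 95% interval -0.66 to 0.029, limma adjusted p = 0.781) and -0.40 for cHF+ROSI (SE 0.17, 95% interval -0.74 to -0.058, limma adjusted p = 0.997). In Cy5 alone, normalized by quantiles, the differences were -0.074 and 0.037.

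**Figure D2:**
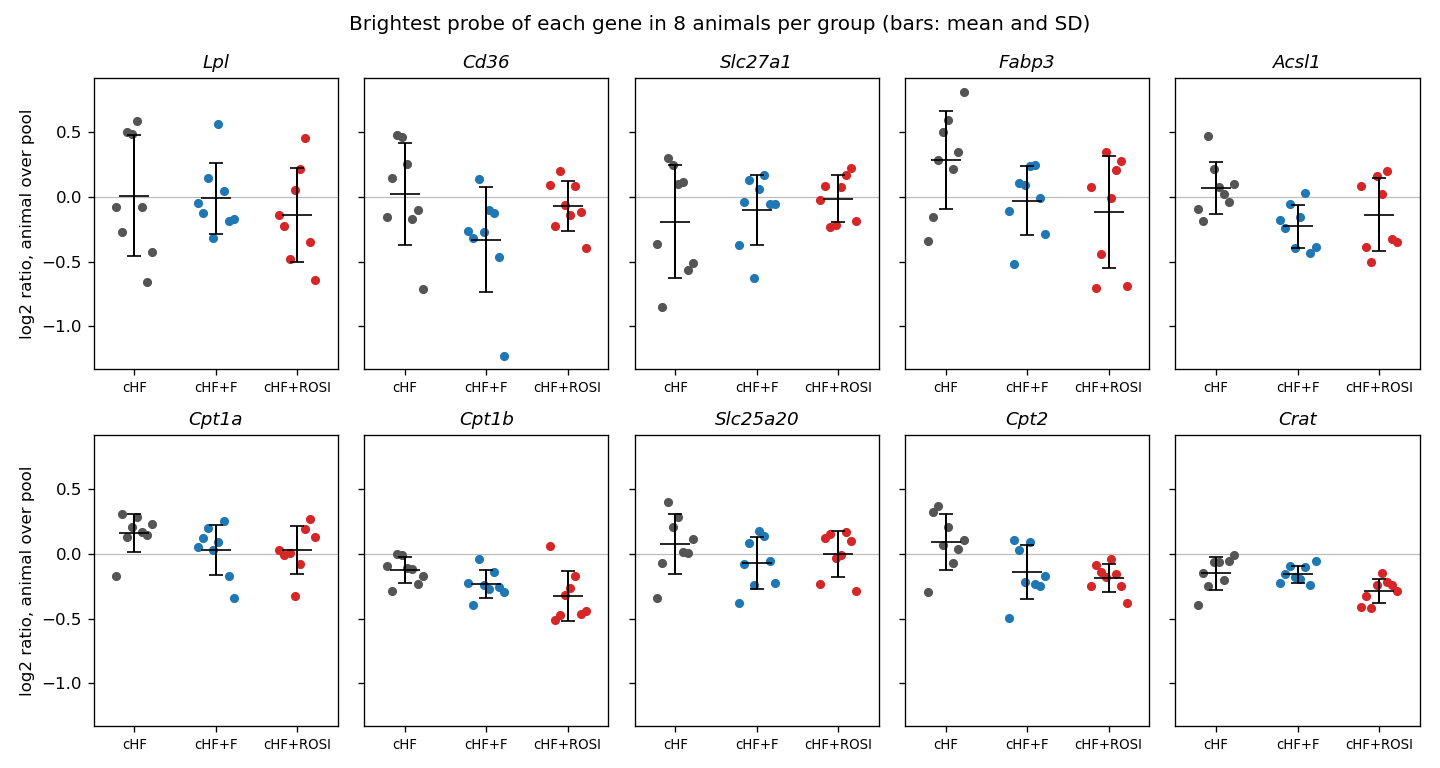
Log2 ratio of animal over pool (vertical axis) for the brightest probe of each gene, with 1 point per mouse in the order of replicate number, in 8 cHF, 8 cHF+F and 8 cHF+ROSI mice. Horizontal marks and bars are the mean and SD. The groups overlap in every panel, and the lowest Cd36 value, -1.23, is that of cHF+F replicate 8.

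Acsl1, which traps fatty acids as acyl-CoA, was measured by 3 probes that lie within a stretch of chromosome 8. On the brightest (mm8, chr8:48034695-48034754, plus strand) the cHF mice ranged from -0.18 to 0.47 with a median of 0.053, the cHF+F mice from -0.43 to 0.030 with a median of -0.21, and the cHF+ROSI mice from -0.51 to 0.21 with a median of -0.15. All 8 cHF+F mice were below the cHF mean, although the ranges overlapped. Its log2 difference for cHF+F was -0.30 (SE 0.10, 95% interval -0.51 to -0.084, limma adjusted p = 0.53), the smallest p of any member under the n-3 diet. The other Acsl1 probes gave smaller values of the same sign, -0.12 (95% interval -0.30 to 0.053) and -0.11 (-0.25 to 0.031, with 1 flagged cHF+F spot left out). The mean over the 3 probes differed by -0.17. In the cHF+ROSI mice the 3 probes gave -0.21 (95% interval -0.42 to 0.0062), -0.046 (-0.22 to 0.13) and -0.0069 (-0.14 to 0.13).

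The CPT1 step was represented by both isoforms. Cpt1a, the liver form, was printed 10 times per array (mm8, chr19:3385374-3385433, plus strand). The SD between its spots on an array had a median of 0.0705, against an SD of 0.178 between animals of a group. The cHF mice ranged from -0.17 to 0.31 with a median of 0.19, the cHF+F mice from -0.34 to 0.26 with a median of 0.073, and the cHF+ROSI mice from -0.33 to 0.28 with a median of 0.019. Both diets differed from cHF by a like amount, -0.13 (95% interval -0.31 to 0.044) and -0.14 (-0.31 to 0.041), which did not exceed the spread. A second Cpt1a probe was too dim to be tested, with a mean signal 1.77 times the background in Cy3.

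Cpt1b, the muscle form and the enzyme thought to limit entry into oxidation, had a brighter probe (mm8, chr15:89244225-89244284, minus strand) with little scatter in the cHF mice, from -0.29 to -0.00028 with a median of -0.11. The cHF+F mice ranged from -0.39 to -0.040 with a median of -0.24. The cHF+ROSI mice ranged from -0.51 to 0.063 with a median of -0.38, and the value of 0.063 was that of replicate 1 alone. The cHF+ROSI difference was -0.20 (SE 0.070, 95% interval -0.34 to -0.051, limma adjusted p = 0.997) and the cHF+F difference was -0.10 (SE 0.070, 95% interval -0.25 to 0.039). Without cHF+ROSI replicate 1 the former was -0.25. The second probe (chr15:89244658-89244717) did not show either, with -0.045 and -0.029. The pair of Cpt1b probes moved in opposite ways across animals, with r = -0.394 over 24 arrays, the only gene with a negative value among the 5 measured by more than 1 probe. Levels from these probes therefore cannot be taken as a single measure of Cpt1b.

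Slc25a20, the translocase, gave -0.15 for cHF+F (mm8, chr9:108540472-108540531, plus strand, 95% interval -0.35 to 0.049) and -0.078 for cHF+ROSI (-0.28 to 0.12). Its cHF mice ranged from -0.34 to 0.41, the cHF+F mice from -0.38 to 0.18 and the cHF+ROSI mice from -0.29 to 0.17. The lowest cHF and the lowest cHF+F mouse were both replicate 1, on the same slide.

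Cpt2, the inner-membrane enzyme that re-forms acyl-CoA, had the smallest p of the group in the rosiglitazone comparison and was lower under both additions. Its probe (mm8, chr4:107401950-107402010, minus strand) ranged from -0.29 to 0.37 with a median of 0.090 in the cHF mice. It ranged from -0.49 to 0.11 with a median of -0.19 in the cHF+F mice, and from -0.38 to -0.034 with a median of -0.16 in the cHF+ROSI mice. All 8 cHF+ROSI values lay below the cHF mean, but cHF replicates 1 and 6 lay within their range. The log2 difference was -0.28 for cHF+ROSI (SE 0.088, 95% interval -0.46 to -0.099, limma adjusted p = 0.979), a fold of 0.824. For cHF+F it was -0.24 (SE 0.088, 95% interval -0.42 to -0.055, limma adjusted p = 0.564), a fold of 0.849. Within slides, Cpt2 was lower in cHF+F on 8 of 8 and in cHF+ROSI on 7 of 8. With the slide as a block, the limma adjusted p was 0.117 for cHF+F and 0.146 for cHF+ROSI. The direct difference between cHF+F and cHF+ROSI was 0.043 (95% interval -0.14 to 0.22).

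Crat, which buffers acetyl-CoA against acetylcarnitine, scattered least of all members. Its probe (mm8, chr2:30224173-30224232, minus strand) ranged from -0.39 to -0.0088 with a median of -0.10 in the cHF mice, from -0.24 to -0.056 with a median of -0.17 in the cHF+F mice, and from -0.41 to -0.15 with a median of -0.26 in the cHF+ROSI mice. All 8 cHF+ROSI mice were below the cHF mean, and all 8 cHF+F mice were above the cHF+ROSI mean. The log2 difference for cHF+ROSI was -0.14 (SE 0.054, 95% interval -0.25 to -0.027, limma adjusted p = 0.997), a fold of 0.909, and on each of the 8 slides the cHF+ROSI mouse was lower than the cHF mouse. For cHF+F it was -0.0077 (95% interval -0.12 to 0.10). Between the additions, the cHF+F mice were higher by 0.13 (SE 0.054, 95% interval 0.019 to 0.24, limma adjusted p = 0.718), and by 0.11 without cHF+ROSI replicate 3, the array with low ratios among its brightest probes.

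The ratio rests on the same pool in Cy3 on every array, and the 2 dyes were therefore also examined on their own. In Cy3 alone 0 of the 16 probes passed the correction in any comparison. At an unadjusted p under 0.05, Cy3 differed for 2 members between cHF+ROSI and cHF, Fabp3 with 0.28 and Lpl probe 2 with 0.18, beside 1.79% of all probes, and for 0 members between cHF+F and cHF, beside 0.496%. With the slide as a block these counts were 5 (beside 21.7% of all probes) and 1 (beside 1.47%). The pool is the same RNA on every array, and the cause of these Cy3 differences was not tested.
In Cy5 alone, normalized by quantiles, the median difference of the members was -0.14 for cHF+F and -0.055 for cHF+ROSI, beside 0.0026 and -0.033 for all probes. For Fabp3, the Cy5 difference was -0.074 in cHF+F and 0.037 in cHF+ROSI, the latter of opposite sign to the ratio. Acsl1 on its brightest probe gave -0.14 and 0.033, the latter again of opposite sign to the ratio. The single-dye values differ from the ratio in the channel and in the normalization, and the part of each was not tested. Cd36 kept -0.29 in cHF+F, Cpt2 kept -0.18 and -0.25, and Cpt1b kept -0.18 and -0.24 in cHF+F and cHF+ROSI, respectively. The Cy5 difference of Crat in cHF+ROSI was -0.32, with -0.21 in Cy3. In Cy5 alone, 0 members in cHF+F and 1 in cHF+ROSI (Cpt1b probe 1) had an unadjusted p under 0.05. Of all 15934 probes, 104 were lower and 112 higher at that p in cHF+F, and 341 and 109 in cHF+ROSI.

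**Figure D3:**
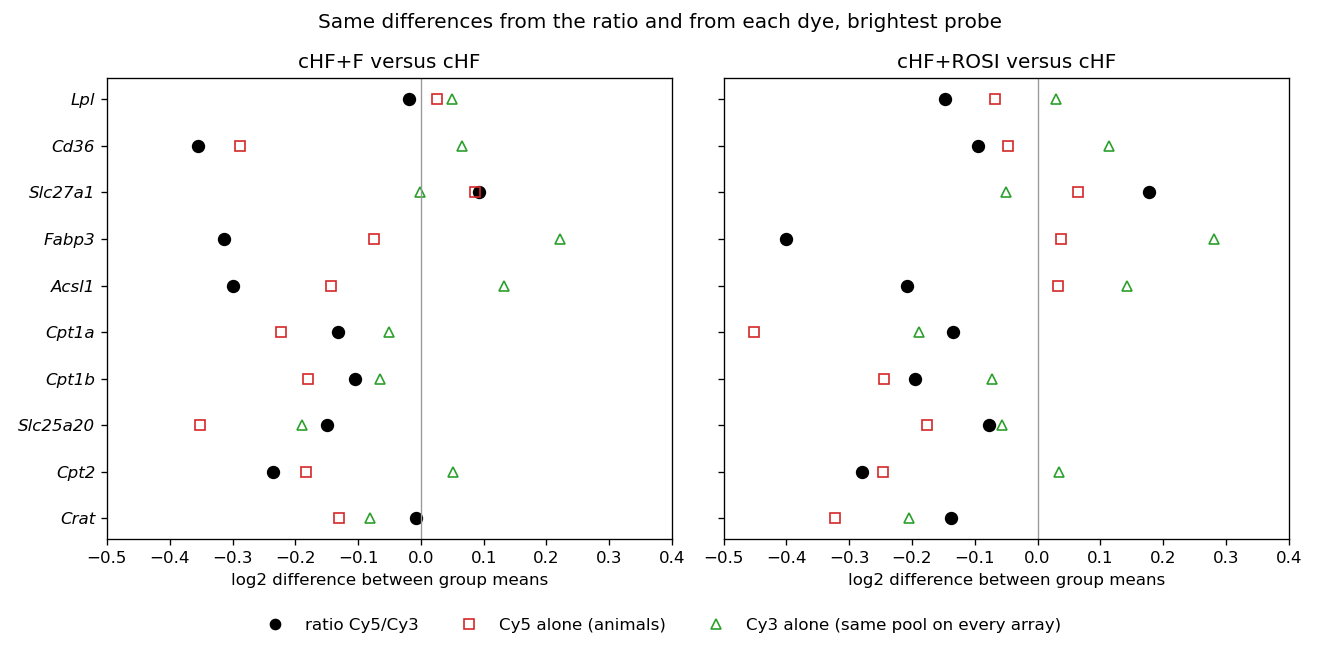
Log2 differences from cHF (horizontal axis) for the brightest probe of each gene, taken from the ratio (black points), from Cy5 alone, which holds the animals (red squares), and from Cy3 alone, which holds the same pool on every array (green triangles). For Fabp3 the Cy3 signal was higher by 0.22 in cHF+F and by 0.28 in cHF+ROSI, while Cy5 differed by -0.074 and 0.037.

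Because each slide held 1 mouse of each diet, the differences could also be read slide by slide. With the brightest probe per gene, all 10 genes were lower in cHF+F than in cHF on slides 4 and 5, 8 of the 10 on slides 2, 3, 7 and 8, 6 on slide 1 and 2 on slide 6. For cHF+ROSI, all 10 genes were lower on slides 3, 4 and 5, 8 on slide 8, 7 on slide 2, 6 on slide 7, 4 on slide 6 and 2 on slide 1. The median difference of the 10 genes ran from -0.43 on slide 4 to 0.048 on slide 6 in cHF+F, and from -0.49 on slide 3 to 0.17 on slide 1 in cHF+ROSI. On slide 6 the median was above 0 in both. The share of all probes lower on each slide was not computed, so these counts lack a background. On slide 3 the brightest 2% of the probes had a median log2 ratio of -0.64 in cHF+ROSI and -0.14 in cHF. Slide 4 held cHF+ROSI replicate 4, with 91.1% of its spots well above background in Cy5. The part of these arrays in the counts was not tested. For 5 of the 16 probes the lowest mouse of every group came from the same slide, which was slide 8 for both Cd36 probes, slide 1 for Acsl1 probe 2 and Cpt1b probe 2, and slide 2 for Cpt1b probe 1. Whether this stems from the slide or from animals that shared a replicate number cannot be told apart.

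Beyond the diets, the members differed in how much they varied between animals of a group. The SD within groups was 0.377 for Lpl, 0.365 for Fabp3, 0.345 for Cd36 and 0.314 for Slc27a1 on their brightest probes, larger than for 97.3%, 97.1%, 96.7% and 95.6% of all probes, whose median SD was 0.145. The SD was 0.204 for Slc25a20, 0.183 for Cpt2, 0.140 for Cpt1b and 0.0993 for Crat, larger than for 83.2%, 75.6%, 45.04% and 9.36% of all probes. It depended on the probe, as the second probe had 0.212 for Slc27a1, 0.298 for Lpl and 0.372 for Cd36, and the spreads of the genes were not tested against each other. The SE of a group difference was accordingly 0.17 for Lpl and 0.054 for Crat.

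The members tended to vary together from mouse to mouse. With each value taken as its deviation from the group mean over 24 arrays, 42 of the 45 pairs of genes had a positive Pearson correlation, with a median r of 0.341, while 51.9% of all pairs of probes were positive with a median r of 0.015. In 9 pairs both Pearson's r and Spearman's rho had a Benjamini-Hochberg adjusted permutation p under 0.05 over the 45 pairs. An r of 0.5 or more was met by 9 of the 45 pairs and by 6.15% of all pairs of probes. Acsl1 with Cpt1b was the closest, with r = 0.738 (permutation p = 2e-04, adjusted p = 0.0054) and rho = 0.785 (permutation p = 0.00013, adjusted p = 0.00292), and r was 0.716 without the 2 arrays farthest from the median. Lpl with Acsl1 reached r = 0.693 and rho = 0.757, and Cpt2 with its partner in the shuttle, Slc25a20, reached r = 0.679 and rho = 0.602. The others were Slc27a1 with Lpl (r = 0.677) and with Slc25a20 (r = 0.628), Fabp3 with Acsl1 (r = 0.592), and Lpl with Cd36 (r = 0.547), Slc25a20 (r = 0.546) and Cpt1b (r = 0.514). The permutations treated the arrays of each diet group as exchangeable, although arrays of a slide tended to deviate together, and no test within slides was made. With slide means removed, r in these 9 pairs ran from 0.309 for Cd36 with Lpl to 0.726 for Slc27a1 with Lpl, and without the 2 farthest arrays from 0.479 to 0.716. Crat and Cpt1a took part in none of the 9.

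**Figure D4:**
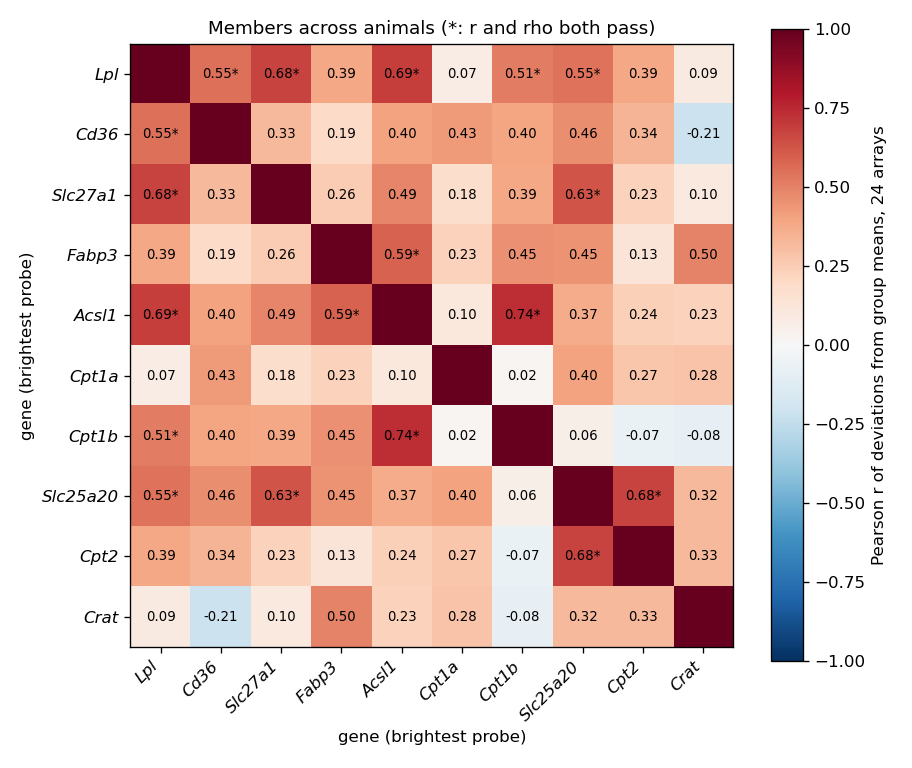
Pearson r between the 10 genes (brightest probe of each, both axes) over the deviations of 24 arrays from their group means, with colour and number giving r. Asterisks mark the 9 pairs in which r and rho both pass the adjusted permutation test, the highest being Acsl1 with Cpt1b at 0.74.

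These relations also depended on the probe. Slc25a20 followed Acsl1 probe 2 with r = 0.943 and probe 3 with 0.714, but the brightest Acsl1 probe with 0.371. Likewise Cpt2 followed Cpt1b probe 2 with r = 0.706 and probe 1 with -0.067. For Acsl1 with Cpt1b, the closest pair above, r ran from 0.74 (probe 1 of both) to -0.22 (Acsl1 probe 1 with Cpt1b probe 2), depending on the probes. The mean signal over background in Cy5 was 505 for Acsl1 probe 1 and 376 for Cpt1b probe 1, which went together, against 32.8 for Acsl1 probe 2 and 45.1 for Slc25a20. The part of signal brightness in these correlations was not tested. Within 1 gene, the 2 probes of Lpl followed each other with r = 0.856, and the 3 of Acsl1 with 0.483 to 0.769.

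For each member, the genes with the most similar pattern over the 24 arrays were looked up by the Pearson r of deviations from group means, as a description. Acsl1 was closest to Acaa2 (r = 0.844), the mitochondrial thiolase, and Acadvl (0.762), the very-long-chain acyl-CoA dehydrogenase. Fabp3 was also closest to Acaa2 (0.750), followed by Myl12b (0.748), and apart from Acsl1 the nearest to Slc25a20 was Hadhb (0.862), a subunit of the trifunctional protein. Cd36 was closest to Scpep1 (0.834) and Khdc4 (0.826), Slc27a1 to Mpv17 (0.882) and Chpt1 (0.868), and Lpl to BC048679 (0.820) and Rab11b (0.804). The nearest to Cpt1b were Ephx2 (0.869) and Appbp2 (0.840), to Cpt2 Gdi2 (0.898) and Wiz (0.865), to Cpt1a Riox1 (0.742) and Tmeff2 (0.705), and to Crat Il16 (0.770) and Zfp68 (0.768).

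Since rosiglitazone and fatty acids are PPAR ligands, the letters of the PPAR half-site were looked for upstream of the members. RefSeq sequences of the 250 bases before a transcript start (GRCm38.p6, which is a later build than that of the probes) were on hand for 7 of the 10 genes, with 10 starts. The half-site AGGTCA, read on both strands, occurred in 2 of these 10 and in 14% of the 32851 such sequences counted, which left out 1 chromosome. A pair of copies in a row with any 1 base between them occurred in 0 and in 0.0335%. Shown are the upstream stretches of the 2 genes that hold it, where capitals mark the half-site (as its reverse complement), and that of Cpt2, which does not hold it and was the one member at an unadjusted p under 0.05 against cHF in both groups. In Cd36 the half-site begins 228 bases and in Cpt1a 94 bases before the start. These matches are a description of the letters only.
Cd36 (chr5:17835897-17836146, minus strand): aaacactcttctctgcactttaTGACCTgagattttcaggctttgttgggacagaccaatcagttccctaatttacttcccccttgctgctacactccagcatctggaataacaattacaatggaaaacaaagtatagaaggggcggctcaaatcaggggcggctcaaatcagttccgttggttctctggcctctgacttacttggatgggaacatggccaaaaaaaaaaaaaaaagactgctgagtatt
Cpt1a (chr19:3323051-3323300, plus strand): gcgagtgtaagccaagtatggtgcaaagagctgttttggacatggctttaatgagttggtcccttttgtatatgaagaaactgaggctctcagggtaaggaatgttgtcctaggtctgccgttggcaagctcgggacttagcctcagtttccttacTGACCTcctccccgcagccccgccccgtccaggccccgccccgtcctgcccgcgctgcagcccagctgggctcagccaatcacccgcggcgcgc
Cpt2 (chr4:107923590-107923839, minus strand): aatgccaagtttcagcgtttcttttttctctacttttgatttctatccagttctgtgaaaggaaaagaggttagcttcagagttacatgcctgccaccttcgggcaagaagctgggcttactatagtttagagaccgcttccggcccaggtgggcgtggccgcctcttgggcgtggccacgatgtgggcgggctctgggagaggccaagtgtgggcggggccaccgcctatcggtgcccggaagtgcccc

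Other genes that serve the route were taken from lists of 29, also chosen with earlier results of these data known, of which 25 were bright enough. In the cHF+F mice 19 of the 25 were lower than in cHF, beside 49.6% of all probes, with a median of -0.060. In the cHF+ROSI mice it was 15 of 25, beside 54.4% of all probes, with a median of -0.050. In limma 0 passed the correction over all probes in any comparison. At an unadjusted p under 0.05, 3 were lower and 1 higher in cHF+F, beside 4.02% and 2.85% of all probes, and 2 lower and 1 higher in cHF+ROSI, beside 2.99% and 1.71%.
Gpihbp1, the endothelial protein that carries lipoprotein lipase to the capillary lumen, differed by -0.19 between cHF+F and cHF (SE 0.076, limma adjusted p = 0.623) and by -0.26 between cHF+F and cHF+ROSI (limma adjusted p = 0.480). Angptl4, a secreted inhibitor of the lipase, gave -0.51 (SE 0.27, limma adjusted p = 0.780) in cHF+F and -0.35 (SE 0.27) in cHF+ROSI. Got2, known also as a plasma membrane fatty acid binding protein, differed by -0.17 in cHF+ROSI (SE 0.071).
On the side of malonyl-CoA, Mlycd, the decarboxylase that degrades it, differed by -0.26 in cHF+F (SE 0.11, limma adjusted p = 0.639) and -0.14 in cHF+ROSI (SE 0.11). Acacb, the carboxylase that makes it at the mitochondrion, differed by -0.098 in cHF+F and -0.17 in cHF+ROSI (SE 0.078). Prkag3, the muscle-specific regulatory subunit of AMPK, was the only list gene higher at an unadjusted p under 0.05 in both, by 0.39 in cHF+F (SE 0.12, limma adjusted p = 0.452) and by 0.32 in cHF+ROSI (SE 0.12, limma adjusted p = 0.997). Dbi, the acyl-CoA binding protein, differed by -0.13 in cHF+F (SE 0.062), and Acsl3, another acyl-CoA synthetase, by -0.28 between cHF+F and cHF+ROSI (SE 0.12). Slc22a5, the carnitine importer, gave -0.059 and -0.100 (SE 0.070).

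Markers of the cell types that a muscle sample can hold were set beside these values, and 0 of them passed the correction in limma. For reading their counts, 49.6% of all probes were lower in cHF+F than in cHF and 4.02% were lower at an unadjusted p under 0.05, while for cHF+ROSI the shares were 54.4% and 2.99%. Of 9 slow fibre markers, 8 were lower in cHF+F than in cHF, 4 of them at an unadjusted p under 0.05, with a median of -0.34, and 7 were lower in cHF+ROSI, 0 at that p, with a median of -0.22. Their mean log2 ratio ran from -0.31 to 0.58 in the cHF mice, from -0.97 to 0.34 in the cHF+F mice and from -1.12 to 0.56 in the cHF+ROSI mice. Of 10 endothelial markers, 10 were lower in cHF+F (median -0.13, 4 at an unadjusted p under 0.05) and 9 in cHF+ROSI (median -0.11, 3 at that p). The mean of the endothelial markers lay between -0.12 and 0.15 in the cHF mice, between -0.28 and -0.060 in the cHF+F mice and between -0.21 and 0.042 in the cHF+ROSI mice. The 4 slow fibre markers at that p in cHF+F were Myh7, Tnni1, Tnnc1 and Tpm3. The paper had already reported these genes, and the endothelial marker Cldn5, as lower in cHF+F from the same arrays. The marker counts in cHF+F are thus not independent of that report. By qRT-PCR in Chow-re-fed mice, the paper's means of Myh7 and Tnnc1 were also lower in cHF+F than in cHF. They carried no mark of significance between these groups.
The 7 macrophage markers were all lower in both (medians -0.15 and -0.075). Of 12 skeletal muscle markers, 4 were lower in cHF+F and 11 in cHF+ROSI (medians 0.067 and -0.14), and of 6 measured adipocyte markers, 4 and 2 (medians -0.080 and 0.039, Adrb3 being too dim). The adipocyte mean ranged widely in all groups, from -1.06 to 0.74 in the cHF mice, from -1.44 to 1.09 in the cHF+F mice and from -0.97 to 0.37 in the cHF+ROSI mice. None of the liver markers measured (6 of 8) was lower in either group, with medians of 0.40 and 0.60, and both measured blood markers were lower in each, with medians of -0.022 and -0.40. Endothelium also expresses Cd36, and oxidative fibres hold more of the transport and shuttle proteins, so these values stand beside those of the members. Their part in the differences was not tested.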

How the data were processed

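Gastrocnemius RNA of 24 mice was hybridised to 2-colour Agilent arrays against a common pool. The authors deposited scanner tables of median intensity and background per spot, written by Feature Extraction (10.5.1.1 per the file headers, 10.5.5.1 in the submitters' processing notes), and a table of normalized log2 values, of which 8 columns of a combined diet outside these samples were not used. Intensities were corrected by normexp (offset 50) and normalized by loess (span 0.3) in limma 3.58.1 and R 4.3.3, flagged spots were dropped, and spots of a probe were averaged. Probes with a mean signal of at least 2 times the background in both channels and at least 4 unflagged arrays per group were kept (15934 of 41174). A limma model of the 3 groups without a block was fitted over all kept probes with Benjamini-Hochberg adjustment at 0.05, and the number of arrays limits its precision. Genes with several probes were described by the brightest. All kept probes were given for the members, while list genes and markers were taken by their brightest kept probe alone. The named genes were the 10 members, up to 5 list genes per comparison with the smallest unadjusted p under 0.05, Angptl4, Gpihbp1, Acacb, Slc22a5 and Mlycd, and the 2 closest correlates of each member. The members and the lists were chosen with earlier results of these data known. Alternatives were the slide as a block, median centring, other loess spans, backgrounds and filters, Cy5 alone, array weights, the deposited log2 table, the methods' t-test (unadjusted and adjusted), and leaving out each array. The scripts were tested on simulated data. Same-numbered arrays shared a slide, and the correlation of their deviations was over 0.1 in 6, 7 and 5 of 8 pairs for cHF+F with cHF, cHF+ROSI with cHF, and cHF+F with cHF+ROSI, so the number was treated as a slide and not as a pairing of animals. Pearson and Spearman correlations were tested with 100000 permutations. Gene symbols of probes came from the accession where RefSeq tables held it (12561 kept probes) and otherwise from the file.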

Additional observations from a re-analysis of the deposited data

Results flagged for a closer look

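Of 47 groups of 8 values examined for a single value that stands apart, 2 held one, and chance alone gives about 1 in 20. On the brighter Cd36 probe, cHF+F replicate 8 was at -1.23 and the nearest mouse of its group at -0.47, a gap of 0.558 of the range of the group and above Dixon's critical value. The second Cd36 probe was also lowest in that mouse, at -1.30. For Cpt1a, cHF replicate 1 was at -0.17 and the nearest at 0.13, a gap of 0.627 of the range. The array of cHF replicate 1 also held the lowest cHF value of Fabp3, Cpt2, Slc25a20 and Crat.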

How the results depend on the processing

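The number of member probes past the correction was 0 under every alternative run. The median log2 difference of the members kept its sign in cHF+F (-0.20 to -0.097 over other settings, -0.18 to -0.096 without single arrays) and in cHF+ROSI (-0.15 to -0.055, and -0.15 to -0.054), while that between cHF+F and cHF+ROSI ran from -0.093 to 0.0096. Among the gene differences followed across the alternatives 2 turned direction, both with Cy5 alone (quantile normalized) in cHF+ROSI, Fabp3 to 0.037 and Acsl1 to 0.033. The median r over the 45 pairs was 0.83 with median centring in place of loess, against 0.34. In cHF+F the count of lower members at an unadjusted p under 0.05 was 0 with median centring, Cy5 alone and the deposited log2 table. These stood beside 0.402%, 0.653% and 9.69% of all probes tested in each setting. The count was 6 with the slide as a replicate block (beside 6.48%) and 7 with array weights (beside 5.79%), against 3 (beside 4.02%). In cHF+ROSI it was 0 with median centring (beside 0.276%), 1 with Cy5 alone (2.14%) and 2 without background correction (3.08%). It was 5 with the block (5.52%), 6 with array weights (4.44%) and 6 with no filter on dim probes (4.25%), against 4 (2.99%). Crat was higher in cHF+F than in cHF+ROSI by 0.013 with median centring. The array weights gave -0.67 for Fabp3 in cHF+ROSI. Leaving out both cHF+ROSI replicates 3 and 4, an alternative chosen after seeing the data, left the 4 lower members in cHF+ROSI, beside 2.43% of all probes. Cpt2 was then at -0.29, Cpt1b at -0.17, Crat at -0.12 and Fabp3 at -0.42. Over all probes in cHF+F, the block called 6, the array weights 12, the mean signals 2, no filter 3 and 1 value per gene 1, against 0, and none of them was a member. The deposited log2 table could be used for cHF+F with cHF alone, since no column name gave the cHF+ROSI group, and scaling between arrays by Aquantile leaves the ratios as they are. In cHF+F, Acsl1 and Cpt2, and in cHF+ROSI, Cpt2, Cpt1b and Crat had an unadjusted limma p under 0.05 without any single one of the 24 arrays, while Cd36 in cHF+F did not in 6 of 24. The cause of these changes was not tested.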
